A study of Mus musculus with 6 samples.

Results

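The transcription factors described here were 5 members of the C/EBP family, Cebpa, Cebpb, Cebpd, Cebpe and Cebpg (CEBPA, CEBPB, CEBPD, CEBPE and CEBPG), together with Gfi1 (GFI1). They were chosen by name, with earlier results of these data known. They were taken as the 6 gene columns with these symbols, out of 18011 symbols in the 6 libraries. All 6 were followed by cell class in Stag2 KO against Stag2 wt (WT below) mice, with 3 samples of each genotype. The cells were lineage-negative haematopoietic stem and progenitor cells of the mouse, sequenced one by one with the 10x Chromium 3' version 2 chemistry. Stag2 is one of the alternative STAG subunits of cohesin, a ring complex that holds chromatin loops. The labels gave only the genotype of each sample: no allele, Cre driver, age or treatment is named for either genotype. Each value below is a sum of raw UMI counts (unique molecular identifiers, 1 per captured transcript) over the cells of a class in a sample, scaled to the same total in every sum and written as CPM. CPM is not per length, but the 3' chemistry counts 1 tag per transcript.

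C/EBP proteins bind DNA as dimers through a leucine zipper, and their members can pair with each other, so the level of each member sets which dimers can form. C/EBP alpha is required for early progenitors to enter the granulocyte and monocyte lineages, and C/EBP epsilon is required later, for the secondary granules of neutrophils and for eosinophils. C/EBP beta is known for granulocyte output under stress and for the survival of patrolling monocytes, C/EBP delta for inflammatory gene expression, and C/EBP gamma, which lacks an activation domain, as a dimer partner. Gfi1 is a zinc finger repressor that recruits histone demethylase and deacetylase complexes, limits stem cell division and is required for neutrophils in the mouse.

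On GRCm38, with the GENCODE M21 annotation, Cebpa lay at chr7:35119293-35121928 on the plus strand and Cebpg at chr7:35046422-35056573 on the minus strand. These neighbours were 62719 bases apart, with 4 annotated genes between them. Cebpb lay at chr2:167688915-167690418 (+), Cebpd at chr16:15887286-15891031 (+), Cebpe at chr14:54710360-54712174 (-) and Gfi1 at chr5:107716657-107726036 (-). Annotated genes on the opposite strand overlapped Cebpa (Gm45091), Cebpb (Tmem189), Cebpd (Spidr), Cebpg (Gm45095) and Gfi1 (A430072P03Rik), and 2 on its own strand overlapped Cebpg. The labels do not say whether counting used the strand, so reads of these overlapping genes may not be separable. The proximal promoters of Cebpa and Cebpb are printed because these factors had log2 changes of opposite sign in basophil/mast cell-like cells. Each is the 250 bases before the RefSeq transcription start (GRCm38.p6, plus strand), chr7:35119043-35119292 for Cebpa and chr2:167688665-167688914 for Cebpb. Capitals mark the C/EBP half-site TTGCG, searched on both strands.
Cebpa promoter: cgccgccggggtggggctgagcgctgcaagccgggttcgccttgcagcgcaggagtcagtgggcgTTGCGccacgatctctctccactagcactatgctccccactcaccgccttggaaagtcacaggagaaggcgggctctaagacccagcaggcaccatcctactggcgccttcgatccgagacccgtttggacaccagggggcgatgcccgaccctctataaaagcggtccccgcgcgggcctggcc
Cebpb promoter: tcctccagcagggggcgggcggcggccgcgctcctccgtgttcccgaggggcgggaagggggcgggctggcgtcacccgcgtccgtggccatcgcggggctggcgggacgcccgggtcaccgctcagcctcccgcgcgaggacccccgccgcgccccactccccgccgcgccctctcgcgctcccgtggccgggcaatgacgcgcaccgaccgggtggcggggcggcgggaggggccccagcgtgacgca
The Cebpa window held 1 half-site, which began 185 bases before the start, and the Cebpb window held 0. The half-site was found in 14.5% of 32851 promoter windows of this length. The CCAAT box, from which the family takes its name, occurred in neither window and in 33.8% of all of them on either strand. These matches describe letters only. RefSeq promoter rows were matched for 4 of the 6 factors.

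After filters, 2385 to 4315 cells remained per KO sample and 2412 to 6407 per WT sample, with median depths of 5721 to 5902 UMIs in KO samples and 3457 to 4872 in WT samples. Stag2, the targeted gene, had 25.2, 23.5 and 20.1 CPM in KO samples and 53.2, 42.9 and 42.9 CPM in WT samples, with no overlap (log2 change -1.04, SE 0.12, adjusted p = 6.40e-04, edgeR's quasi-likelihood test). In all, 391 cell barcodes occurred in at least 2 libraries, 11 to 48 for any pair. Sample titles carried a code with the prefix XA in all 3 KO samples and in WT1, and other prefixes in WT2 and WT3. What the prefix marks was not stated, so it is treated below as a possible covariate. Clustering without the 6 factors gave 26 clusters, of which 4 stayed unnamed. These were cluster 1 (led by Serpinf1, BC035044, Cd34 and Ung), cluster 12 (the cell cycle genes Hist1h2ap, Nusap1 and Top2a), cluster 15 (Ear2, Clec4a3, Gngt2 and Clec4a1) and cluster 18 (Gata3, Ly6a and Lztfl1). Together with 9 named classes they formed the 13 groups with at least 20 cells in every sample, in which tests were run. The HSC/MPP-like class, which was cluster 2 alone (1757 cells), held 9.24% ± 1.74 of KO cells and 5.98% ± 0.512 of WT cells (SD, n = 3 each). Cells outside it may carry these markers too. At Leiden resolutions 0.5 and 2.0, clusters led by Hist1h2ap and Nusap1, as cluster 12 was, took the HSC/MPP name (536 and 578 cells). Mature cells, among them T/NK cell-like and basophil/mast cell-like cells, were present under the lineage-negative label.

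The 6 factors had distinct territories across the classes, here as the mean ± SD over all 6 samples. Cebpa was highest in basophil/mast cell-like cells at 542 ± 122 CPM, followed by cluster 1 at 105 ± 27.2, cluster 12 at 63.6 ± 8.86 and granulocyte progenitor-like cells at 63.3 ± 11.6. The first step exceeded the spread between samples, and the last 2 groups did not differ beyond theirs. Basophil/mast cell-like cells held 65.5% ± 2.65 of all Cebpa counts in KO samples and 69.5% ± 2.99 in WT samples. Cebpb was highest in cluster 15 at 1560.2 ± 322 CPM, far above basophil/mast cell-like cells at 229.7 ± 66.04, late neutrophil-like cells at 223 ± 68.02, granulocyte progenitor-like cells at 149 ± 26.5 and monocyte-like cells at 113 ± 36.8. These last 4 overlapped in order. Cluster 15 stayed unnamed because the leading genes held an eosinophil marker, Ear2, and none of the class that its raised markers pointed to. The monocyte-like name is uncertain: 934 cells of the class were in cluster 11, led by Cd209d, Upb1 and Klf4, and the cluster with the same leading genes at a finer Leiden resolution (2.0) took a dendritic cell name.

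Cebpd peaked in late neutrophil-like cells at 227 ± 64.8 CPM, and then lay close together in granulocyte progenitor-like (97.3 ± 12.2), basophil/mast cell-like (94.4 ± 9.38), cluster 15 (91.8 ± 36.5) and dendritic cell-like cells (83.9 ± 23.5). Cebpe was highest in granulocytes, with 1086 ± 192 CPM in eosinophil-like, 836 ± 208 in late neutrophil-like and 343 ± 52.9 in granulocyte progenitor-like cells, and 90.98 ± 16.9 in cluster 1. Cluster 1, with more cells, held 14.2% ± 1.94 of the Cebpe counts in KO samples and 28.2% ± 5.97 in WT samples. Cebpg had the flattest pattern, from 111 ± 29.5 CPM in cluster 15 to 23.97 ± 3.91 in granulocyte progenitor-like cells among the 13 tested groups. Gfi1 was highest in granulocyte progenitor-like cells at 76.5 ± 6.69 CPM, then in cluster 18 at 52.5 ± 19.97 and late neutrophil-like cells at 44.3 ± 24.7, which overlapped. In cluster 15 and in late erythroid-like cells Gfi1 was at 0 counts in all 6 samples, which allows up to 5.53 to 37.1 CPM and up to 2.61 to 17.4 CPM by sample (3 counts of each sum). Levels across classes are a description, because the classes were built from the cells' own expression.

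**Figure D1:**
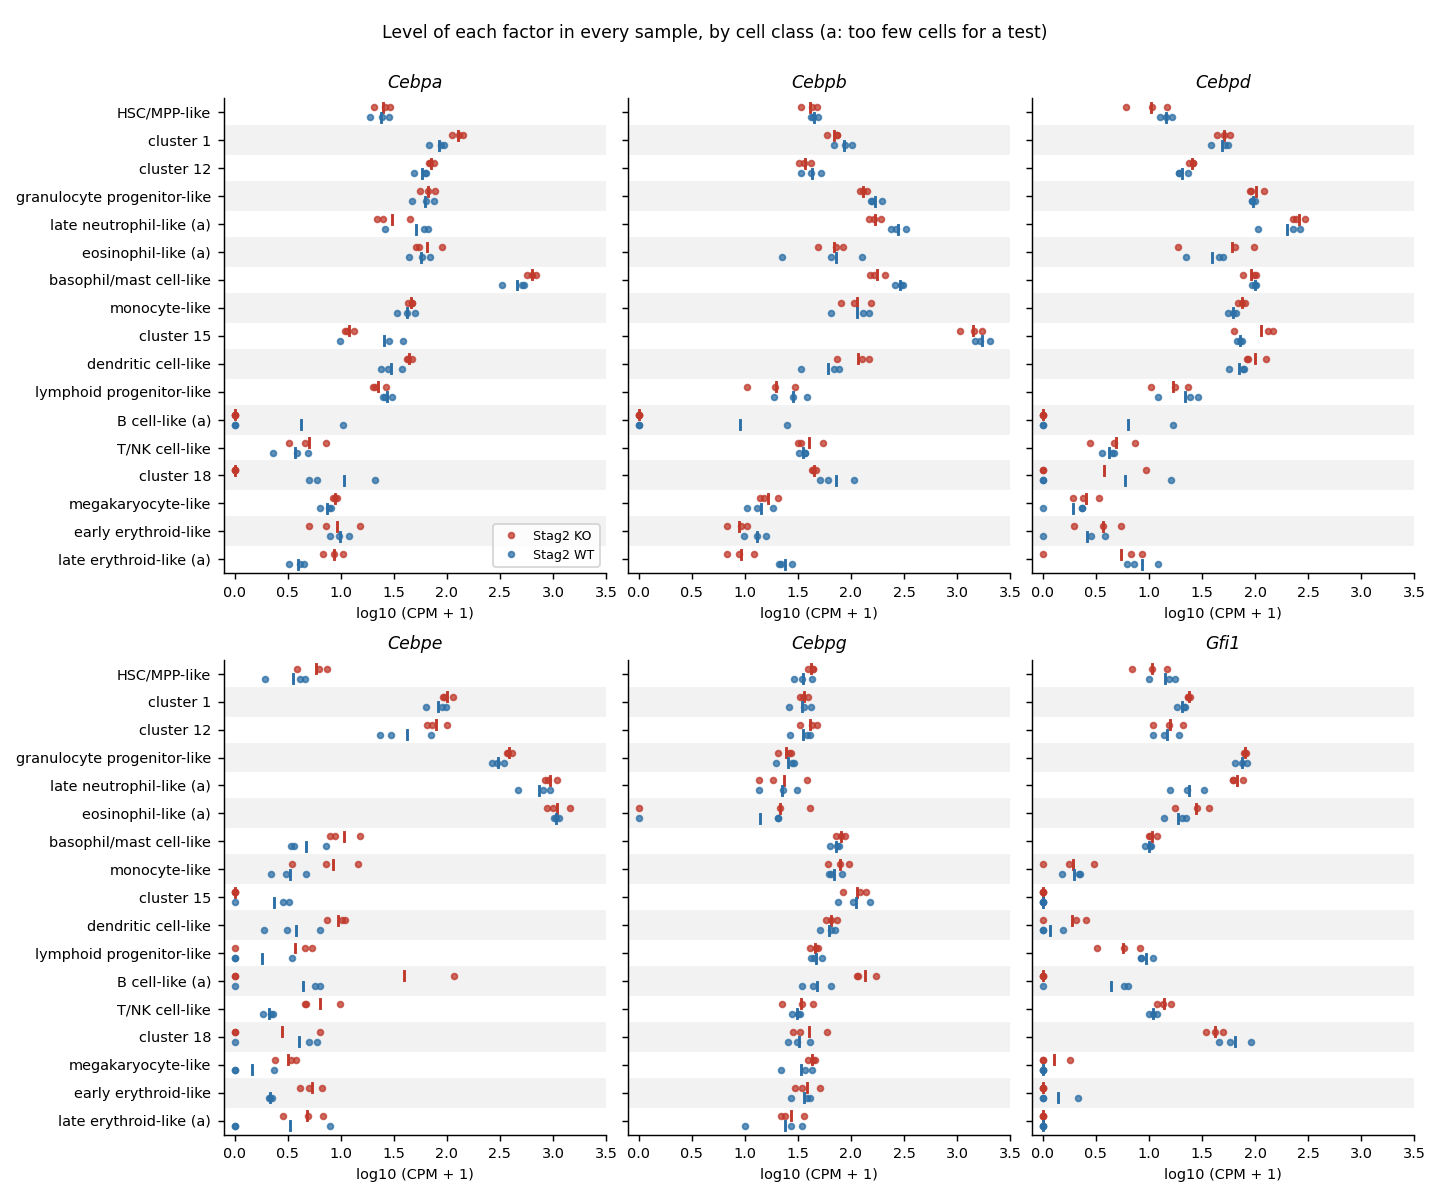
Level of each of the 6 factors in every sample as log10 of CPM plus 1 (horizontal axis), with 17 cell classes and clusters down the page, KO samples (red) above WT samples (blue), points for samples and ticks for the means. Cebpa stands out in basophil/mast cell-like cells, Cebpb in cluster 15, and Cebpe in the eosinophil-like, late neutrophil-like and granulocyte progenitor-like cells.

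The genes whose levels across the 13 tested groups ran most like each factor's were ranked by Pearson's r over these 13 groups, among 7229 genes, as a description in which all points share the same 6 libraries. Cebpe ran closest to Mrgpra2b (r = 0.98), Cldn15 (0.98) and Elane (0.97), the neutrophil elastase gene. Cebpb ran closest to Gsdmd (0.93), the gene of the pore-forming protein gasdermin D, to the calcium channel gene Orai1 (0.93) and to Ftl1-ps1 (0.92), a ferritin pseudogene whose counts may be shared with its parent gene. Cebpd ran closest to Atp6v0b (0.95), Dok3 (0.95) and Clec12a (0.95), and Cebpa to Gpi1 (0.93), Id1 (0.89) and Rtn3 (0.89). For Cebpg these were Hlcs (0.94), Fuca1 (0.94) and Pold4 (0.93), and for Gfi1 they included Rgcc (0.88) and Sun2 (0.81). Between the factors themselves r was highest for Cebpb with Cebpd (0.76) and for Cebpa with Cebpd (0.74), and lowest for Cebpg with Gfi1 (-0.62).

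Summed over all kept cells, Cebpe and Gfi1 were higher and Cebpb was lower in KO samples. Cebpe had 129.7, 105 and 127 CPM in KO samples, against 42.8, 38.1 and 72.4 CPM in WT samples. The genotypes did not overlap, and the log2 change was 1.19 (SE 0.21, adjusted p = 0.00647). Gfi1 had 24.7, 23.2 and 23.95 CPM in KO samples and 13.1, 13.2 and 16.5 CPM in WT samples. Every KO sample was above every WT sample (log2 change 0.71, SE 0.105, adjusted p = 0.00259). Cebpb had 88.9, 97.97 and 100.3 CPM in KO samples and 107, 149.6 and 146 CPM in WT samples. Every KO sample was below every WT sample (log2 change -0.52, SE 0.12, adjusted p = 0.0202). In this comparison 10.8% of all 12636 tested genes passed, and 30.4% had genotypes that did not overlap in CPM. Cebpa (126, 143 and 171 CPM in KO, 121, 127 and 83.9 in WT, adjusted p = 0.153), Cebpd (adjusted p = 0.179) and Cebpg (adjusted p = 0.792) overlapped between genotypes and did not pass. The Cebpb call was lost without KO1 (-0.47, adjusted p = 0.09), KO3 (-0.55, 0.0588), WT2 (-0.46, 0.0842) or WT3 (-0.44, 0.0683). Among the XA-coded samples alone its log2 change was -0.21 (adjusted p = 0.358).

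These sums mixed cell types whose shares moved with genotype, and fewer cells of a type cannot be told apart in them from less RNA per cell. Granulocyte progenitor-like cells made up 8.96% ± 1.73 of KO cells and 3.59% ± 2.11 of WT cells (SD, n = 3 each). Late neutrophil-like cells made up 1.12% ± 0.448 of KO cells and 0.156% ± 0.0826 of WT cells. Cluster 15 made up 1.19% ± 0.321 of KO cells and 4.73% ± 1.09 of WT cells. Each of these 3 shares had no overlap between genotypes, with a 2-sided exact permutation p of 0.1, the smallest that 3 against 3 samples allow. After Benjamini-Hochberg adjustment it was 0.142. Most other classes had no overlap either, among them HSC/MPP-like, T/NK cell-like, monocyte-like and megakaryocyte-like cells. Granulocyte progenitor-like cells held 55.6% ± 2.42 of the Cebpe counts in KO samples and 49.5% ± 15.2 in WT samples. Of the Gfi1 counts they held 57.7% ± 3.79 in KO samples and 40.8% ± 8.69 in WT samples. Cluster 15 held 4.98% ± 0.556 of the Cebpb counts in KO samples and 19.05% ± 5.24 in WT samples. When the counts were reweighted to give every sample the same class shares, the log2 change of Cebpe was 0.302 (adjusted p = 0.0652) and that of Gfi1 0.09 (adjusted p = 0.629), and neither passed. The reweighting scaled up the late neutrophil-like cells of WT samples, which numbered only 3, 4 and 16. Cebpb still passed at -0.35 (adjusted p = 0.0204), and Cebpa passed at 0.496 (adjusted p = 0.0476). With equal shares 7.64% of all genes passed.

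Within single classes, 53 of the 78 pairs of a factor and a tested group had enough counts for a test, and 7 of these passed, 5 higher and 2 lower in KO. Over all genes and all 13 groups 3.78% of the tests passed. The 7 calls fell on Cebpb in 3 groups, Cebpe in 3 and Cebpa in 1, and Cebpd, Cebpg and Gfi1 had 0 by edgeR and 0 by DESeq2, with 3 unadjusted p-values under 0.05 for Cebpd, 0 for Cebpg and 1 for Gfi1. By DESeq2, 4 of the 7 calls passed. The calls lost were Cebpb and Cebpe in dendritic cell-like cells and Cebpe in cluster 12. Cebpe entered a test in 5 groups, of which some passed the low-count filter mainly through the KO samples, so its 3 calls give no general count.

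**Figure D2:**
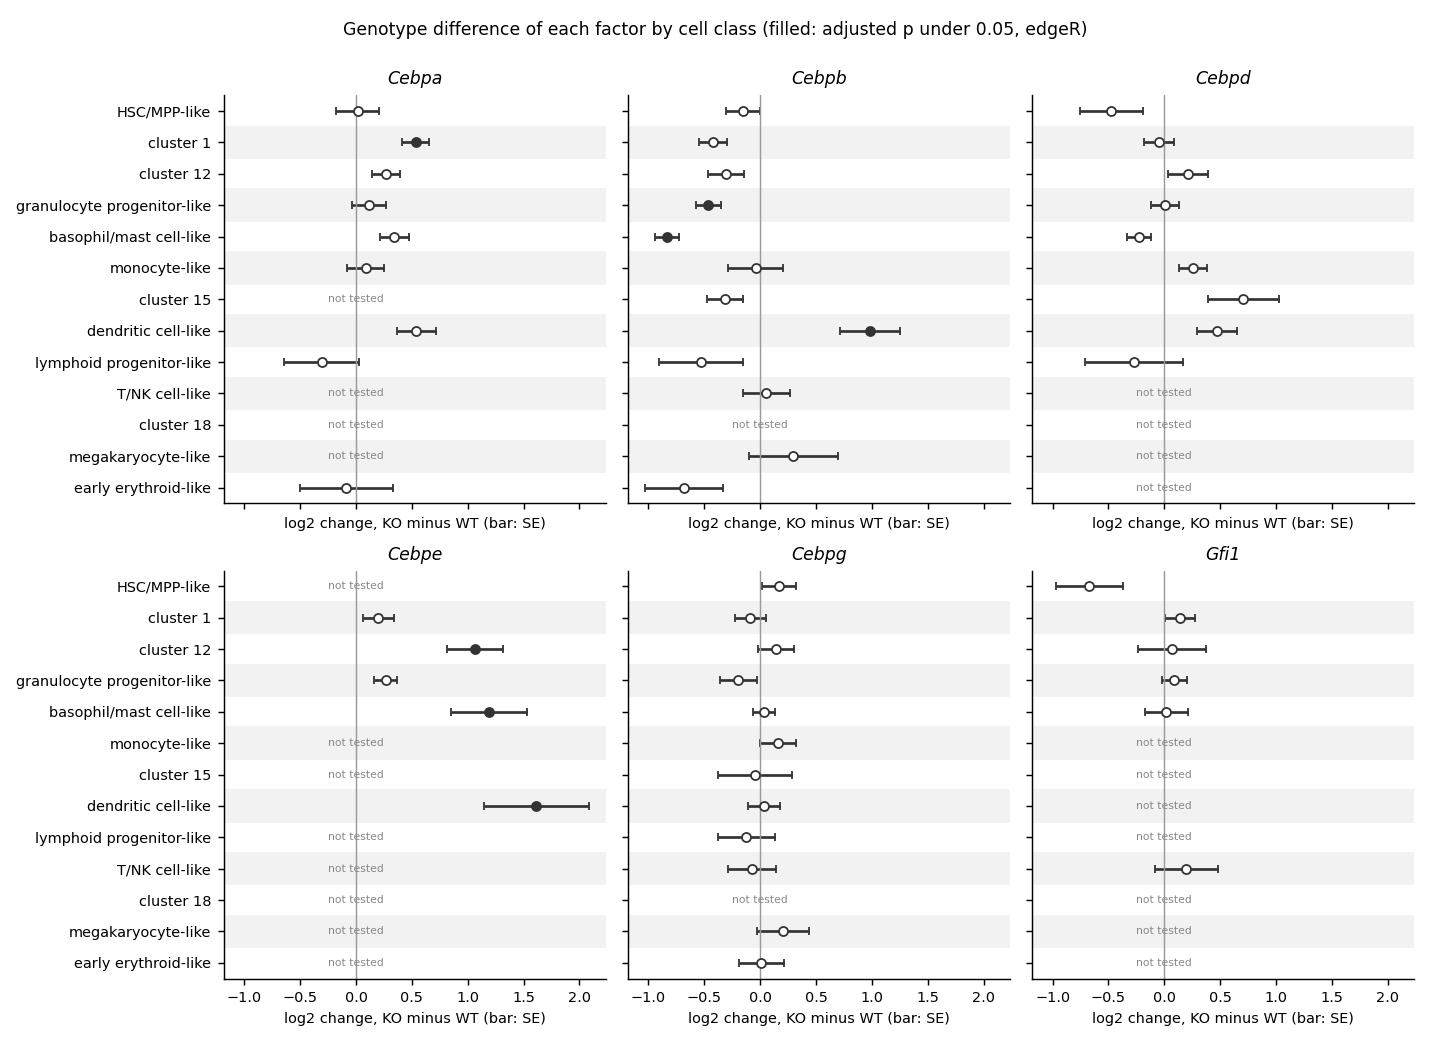
Log2 change of each factor, KO minus WT, with its standard error (horizontal axis) in the 13 tested groups (down the page); filled points passed an adjusted p of 0.05 in edgeR's test and open points did not. Cebpb lies below 0 in 9 of its 12 tested groups, with the lowest value in basophil/mast cell-like cells, and Cebpe lies above 0 in all 5. Some of those 5 passed the low-count filter mainly through KO samples, so the shared sign of Cebpe gives no general count.

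Cebpb fell in basophil/mast cell-like cells of KO mice, the class led by genes such as Prss34, Mcpt8 and Ccl6. Cebpb had 149.5, 165 and 207 CPM there in KO samples, against 258, 306 and 292 CPM in WT samples. No KO sample reached a WT sample, and the log2 change was -0.84 (SE 0.11, adjusted p = 5.20e-05), in a class where 12.8% of all genes passed. After every cell was thinned to 2000 UMIs, 25.9% ± 2.31 of KO cells and 38.1% ± 4.43 of WT cells (SD, n = 3 each) had a Cebpb UMI (exact permutation p = 0.1, 0.382 after Benjamini-Hochberg adjustment). Thinning left out 98, 28 and 58 shallower cells in KO samples and 102, 129 and 877 in WT samples, and the unthinned shares were 46.1% ± 3.404 of KO cells and 52.4% ± 5.48 of WT cells. In T/NK cell-like cells the thinned shares were 6.62% ± 2.48 of KO cells and 6.14% ± 0.487 of WT cells. Cebpa, the other abundant family member of this class, had 564, 629 and 688 CPM in KO samples and 533, 506 and 332 CPM in WT samples. Its genotypes did not overlap either, in the opposite direction, but it did not pass (log2 change 0.34, SE 0.13, adjusted p = 0.105).

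Different clusters held most of this class in the 2 genotypes, with 64.1% of its KO cells in cluster 3 and 63.0% of its WT cells in cluster 0, so the comparison was repeated in the clusters that both genotypes shared. Clusters 0 and 3 themselves could not be compared. Cluster 0 had only 11, 8 and 3 cells in KO samples, and cluster 3 only 7, 4 and 16 in WT samples. In cluster 20, led by Prss34 and cell cycle genes, Cebpb had 189, 241 and 276 CPM in KO samples and 305, 476 and 399 CPM in WT samples. The genotypes did not overlap (log2 change -0.92, SE 0.16, adjusted p = 7.48e-04, with 3.72% of genes passing). Cluster 10, led by Prss34 and Mcpt8, showed the same order, at 164, 179.97 and 141 CPM in KO samples and 304, 362 and 344 CPM in WT samples, but KO2 had only 15 cells there and no test was run. Cluster 13, led by Gzmb, Lmo4 and Scin, went the other way. Cebpb had 149, 164 and 239 CPM there in KO samples and 120.5, 111 and 93.2 CPM in WT samples, again with no overlap (log2 change 0.72, SE 0.19, adjusted p = 0.0137, with 10.4% of genes passing). Cebpa in cluster 13 had 450.2, 541 and 549 CPM in KO samples and 253, 257 and 162 CPM in WT samples. The genotypes did not overlap (log2 change 1.13, SE 0.14, adjusted p = 5.95e-06), and Cebpg rose there as well (60.4, 60.7 and 61.8 CPM in KO, 28.1, 34.9 and 39.9 in WT, adjusted p = 0.0365).

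Cluster 13 itself held different cells in the 2 genotypes. At Leiden resolution 2.0 it divided, with 77.7% of its KO cells in a cluster led by Prss34, Mcpt8 and Rnase12 (numbered 20 at that resolution) and 91.4% of its WT cells in one led by Gzmb and Scin (numbered 30). Within that cluster 30, Cebpb had 56.7, 52.05 and 54.4 CPM in KO samples and 99.6, 108 and 94.1 CPM in WT samples. It was lower in every KO sample (log2 change -0.97, SE 0.21, adjusted p = 0.0105, with 1.85% of genes passing), and Cebpa had a log2 change of 0.01 (SE 0.18, adjusted p = 0.999). Cluster 28, the cycling basophil/mast cell-like cells at that resolution, gave a Cebpb log2 change of -0.92 (adjusted p = 7.68e-04, with 3.7% of genes passing). In cluster 29, cycling monocyte-like cells led by F13a1, Cebpb had 52.1, 50.3 and 37.1 CPM in KO samples and 43.5, 101 and 119.7 CPM in WT samples. Here the ranges overlapped, since WT1 lay among the KO samples (log2 change -1.09, adjusted p = 0.0235, with 0.873% of genes passing). The finer clusters were added after the values in the coarser ones were seen.

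**Figure D3:**
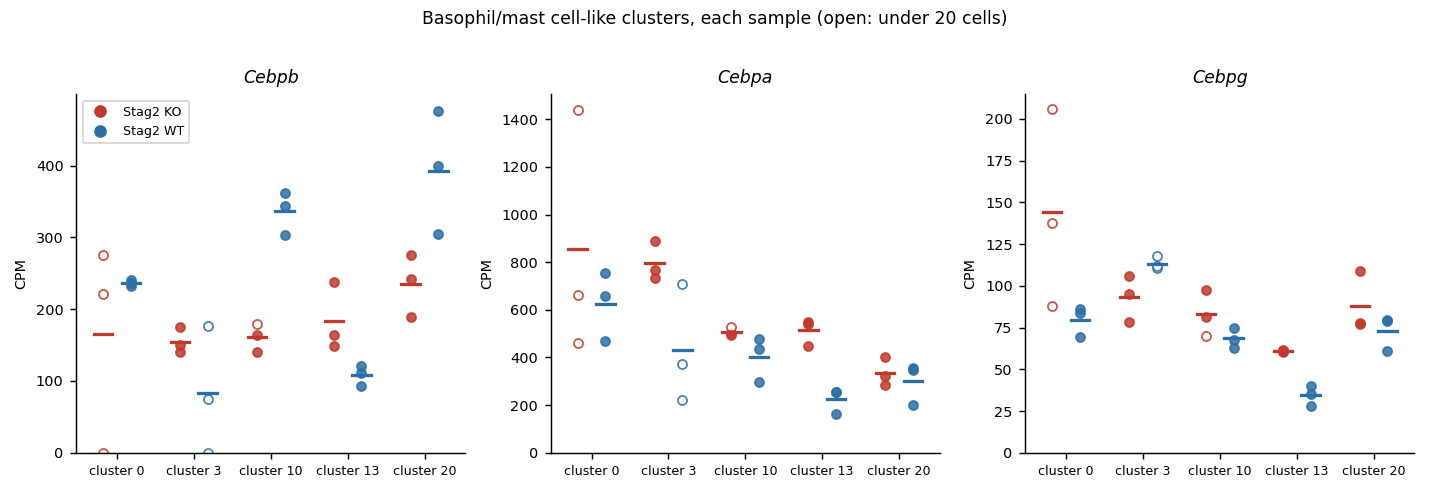
CPM of Cebpb, Cebpa and Cebpg (vertical axes) in each sample, for the 5 main basophil/mast cell-like clusters (horizontal axis), KO left (red) and WT right (blue), with bars at the means and open points for samples with under 20 cells. Cebpb is lower in KO in clusters 10 and 20 and higher in KO in cluster 13, where the KO samples sit between 149 and 239 CPM.

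Cebpb was also lower in the granulocyte progenitor-like cells of KO mice, the Mpo, Elane and Prtn3 expressing precursors of neutrophils. It had 129.95, 120.5 and 139.8 CPM in KO samples and 153, 157 and 196 CPM in WT samples. The genotypes did not overlap (log2 change -0.46, SE 0.11, adjusted p = 0.0304), in a class where 2.26% of all genes passed. The call was lost without KO1 (adjusted p = 0.106, log2 change -0.45), KO2 (0.119, -0.41), KO3 (0.0574, -0.51) or WT3 (0.27, -0.304), and with the title prefix as a covariate (0.663, -0.29), with the sign kept. It was also lost at resolution 2.0 and with the factors among the variable genes, again with the sign kept. Late neutrophil-like cells were too few in WT for a test, at 3, 4 and 16 cells, and there Cebpb had 165, 148 and 193 CPM in KO samples and 239, 329 and 266 CPM in WT samples. Cluster 15, where Cebpb was most abundant, had 1438, 1073 and 1708 CPM in KO samples and 1455, 2033 and 1654 CPM in WT samples. These ranges overlapped and the difference did not pass (log2 change -0.32, SE 0.16, adjusted p = 0.431).

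In dendritic cell-like cells Cebpb went the other way. It had 127, 148 and 73.4 CPM in KO samples and 68.2, 32.8 and 76.3 CPM in WT samples. The ranges overlapped, KO3 lying below WT3, and the log2 change was 0.98 (SE 0.27, adjusted p = 0.0314, with 8.01% of genes passing). The class joined cluster 7, in which Cebpb had 16.5, 7.69 and 20.3 CPM in KO samples and 4.87, 10.1 and 15.4 CPM in WT samples, and cluster 9, with 238, 244 and 134 CPM in KO samples and 157, 65.5 and 163 CPM in WT samples. Neither cluster alone passed (adjusted p = 0.574 for cluster 7 and 0.164 for cluster 9). The summed level of the 14 monocyte markers, all with a count in the class, was 8985, 14167 and 7239.8 CPM in KO samples and 6344, 5041 and 6311 CPM in WT samples, and its part in the Cebpb difference was not tested. Without KO1 the adjusted p was 0.0961 (log2 change 0.94), without KO2 0.103 (0.75) and without WT2 0.12 (0.64), and at resolution 2.0 the sign turned (-0.18). The Cebpb call was also lost with the title prefix as a covariate and with doublets kept.

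Cebpe, the late granulocyte factor, was higher in KO in 3 groups, but 2 of these calls were at low levels. Cebpe was also higher in every KO sample of the unrelated T/NK cell-like, early erythroid-like and megakaryocyte-like cells. In basophil/mast cell-like cells it had 14.2, 6.99 and 7.78 CPM in KO samples and 2.38, 6.28 and 2.61 CPM in WT samples. The genotypes did not overlap (log2 change 1.19, SE 0.34, adjusted p = 0.0302). Dendritic cell-like cells had 9.296, 9.91 and 6.38 CPM in KO samples and 2.13, 0.912 and 5.33 CPM in WT samples, without overlap (log2 change 1.61, SE 0.47, adjusted p = 0.0448). T/NK cell-like cells, where Cebpe is not expected, had 3.72, 3.61 and 8.84 CPM in KO samples and 1.29, 0.868 and 1.23 CPM in WT samples, and early erythroid-like cells 3.17, 4.05 and 5.73 CPM in KO samples and 1.104, 1.25 and 1.15 CPM in WT samples. Megakaryocyte-like cells had 2.18 ± 0.723 CPM in KO samples and 0.455 ± 0.788 in WT samples, from 7 and 1 counts. These classes also had no overlap, with too few counts for a test. How many of all genes had no overlap in them was not counted. The 14 late neutrophil markers summed in T/NK cell-like cells to 261, 395 and 169 CPM in KO samples and 61.8, 50.4 and 138 CPM in WT samples. There 12 of the 14 had a count, Mmp8 and Ly6g were at 0 in both genotypes, and Retnlg and Cxcr2 had lower mean CPM in KO. In basophil/mast cell-like cells, which themselves express Cxcr2, a leading gene of their clusters 0 and 3, these markers summed to 566, 674 and 504 CPM in KO samples and 263, 282 and 381 CPM in WT samples. Without Cxcr2 and Lcn2 (left out after their levels there were seen) the sum was 264, 404 and 179 CPM in KO samples and 55.9, 50.2 and 157 CPM in WT samples. Mmp9 was lower in KO there, at low levels (mean 0.253 CPM in KO, 3.62 in WT, log2 change -3.69, adjusted p = 0.00149). It passed the low-count filter mainly through WT samples. In dendritic cell-like cells the 14 markers summed to 381, 859 and 345 CPM in KO samples and 114, 62.001 and 333 CPM in WT samples. The part in these 2 calls of neutrophil RNA from outside the cells was not tested. The basophil/mast cell-like call was lost without KO1 (adjusted p = 0.214, log2 change 0.79) or WT3 (0.165, 0.92), and the dendritic cell-like call without KO1 (0.133, 1.57), KO2 (0.124, 1.47), WT1 (0.107, 1.53) or WT2 (0.196, 1.08). Both calls were also lost with the title prefix as a covariate and with doublets kept. The basophil/mast cell-like call was lost as well in cells with at least 2000 UMIs and at resolution 2.0.

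**Figure D4:**
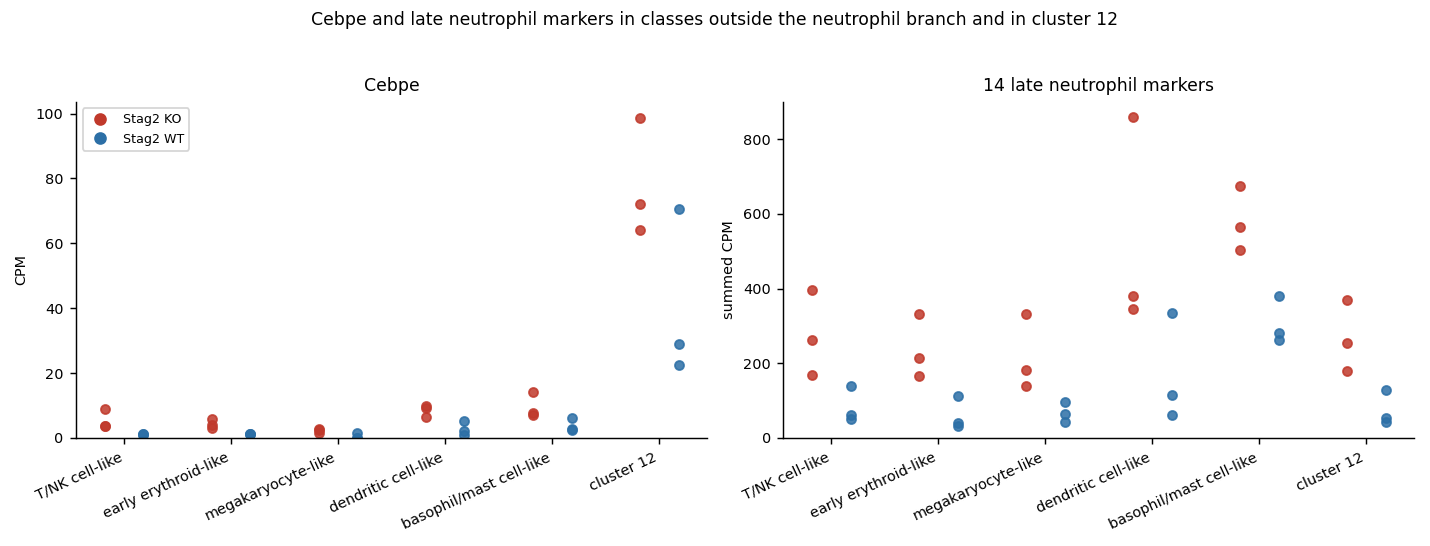
CPM of Cebpe (left) and the summed CPM of the 14 late neutrophil markers (right) in each sample of 6 classes and clusters (horizontal axes), KO left (red) and WT right (blue). Cebpe in T/NK cell-like, early erythroid-like and megakaryocyte-like cells stays below 10 CPM and, like the marker sum, is higher in KO samples.

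In the cycling cells of cluster 12, Cebpe had 63.99, 72.03 and 98.7 CPM in KO samples and 70.5, 22.6 and 29.1 CPM in WT samples. WT1 lay within the KO range, and WT2 and WT3 lay far below it (log2 change 1.07, SE 0.25, adjusted p = 0.0331, with 1.56% of genes passing). WT1 carried the same XA title prefix as the KO samples, and with the prefix as a covariate the log2 change was 0.06 (adjusted p = 0.965). The call was also lost without KO3 (adjusted p = 0.218, log2 change 0.84), WT2 (0.242, 0.81) or WT3 (0.368, 0.84), and with doublets kept. Late neutrophil markers in cluster 12 summed to 253, 369 and 179.8 CPM in KO samples and 52.3, 42.9 and 128 CPM in WT samples.

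Cebpa, the factor of early granulocyte and monocyte commitment, was higher in KO in cluster 1, whose leading genes included Cd34 and Mpo. Its first leading genes, Serpinf1 and BC035044, also led a finer cluster (14 at resolution 2.0) that took a monocyte name with F13a1. That finer cluster held 89, 55 and 54 cells in KO samples and 72, 162 and 228 in WT samples. How cluster 1 divided into finer clusters in each genotype was not compared, and its part in the Cebpa difference was not tested. In cluster 1 Cebpa had 110.3, 129 and 140.2 CPM in KO samples and 93.9, 87.7 and 66.7 CPM in WT samples. No WT sample reached a KO sample (log2 change 0.53, SE 0.12, adjusted p = 0.0131, with 3.9% of genes passing). Cluster 12 (68.1, 67.2 and 74.2 CPM in KO samples, 63.2, 60.9 and 48.1 in WT samples) and dendritic cell-like cells (45.96, 42.2 and 40.9 CPM in KO samples, 26.99, 36.9 and 22.9 in WT samples) also did not overlap, with adjusted p = 0.464 and 0.0694. The cluster 1 call was lost without KO3 (log2 change 0.45, adjusted p = 0.0862) or WT3 (0.399, 0.0864), and with the title prefix as a covariate (0.31, 0.551).

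Along the neutrophil branch the levels of the factors differed from cluster to cluster, as seen at resolution 2.0. The clusters, ordered by their leading genes and not by time, were cluster 7 (Cd34, Myc), cluster 4 (Mpo, Prss57), cluster 23 (Elane), cluster 10 (Fcnb, Wfdc21) and cluster 37 (Camp, Ltf). Cebpa was highest in cluster 7, with 119, 146 and 149 CPM in KO samples and 124, 87.4 and 67.6 CPM in WT samples, and in cluster 37 had 20.96, 23.97 and 42.7 CPM in KO samples and 59.8, 65.7 and 24.1 CPM in WT samples. Cebpe ran the other way. It had 26.5, 30.9 and 27.98 CPM in KO samples and 21.5, 20.4 and 31.4 CPM in WT samples in cluster 7. In cluster 4 it had 233, 226 and 269.6 CPM in KO samples and 285, 252 and 271 CPM in WT samples, and in cluster 37 889.6, 841 and 1081 CPM in KO samples and 463, 942 and 803 CPM in WT samples. In cluster 10 Cebpe had 459.6, 464 and 491 CPM in KO samples and 317, 347 and 432 CPM in WT samples, without overlap. WT1 had 16 cells there, so no test was run. Gfi1 peaked one step earlier, in cluster 10, with 101, 96.1 and 94.2 CPM in KO samples and 106, 80.2 and 80.9 CPM in WT samples. In cluster 37 Gfi1 had 60.5, 61.01 and 76.3 CPM in KO samples and 14.9, 21.9 and 30.2 CPM in WT samples. That gap had no overlap, but rested on 3, 4 and 17 WT cells. Tests were run in clusters 7 and 4, where the lowest adjusted p among Cebpa, Cebpb, Cebpe and Gfi1 was 0.0914, for Cebpa in cluster 4.

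**Figure D5:**
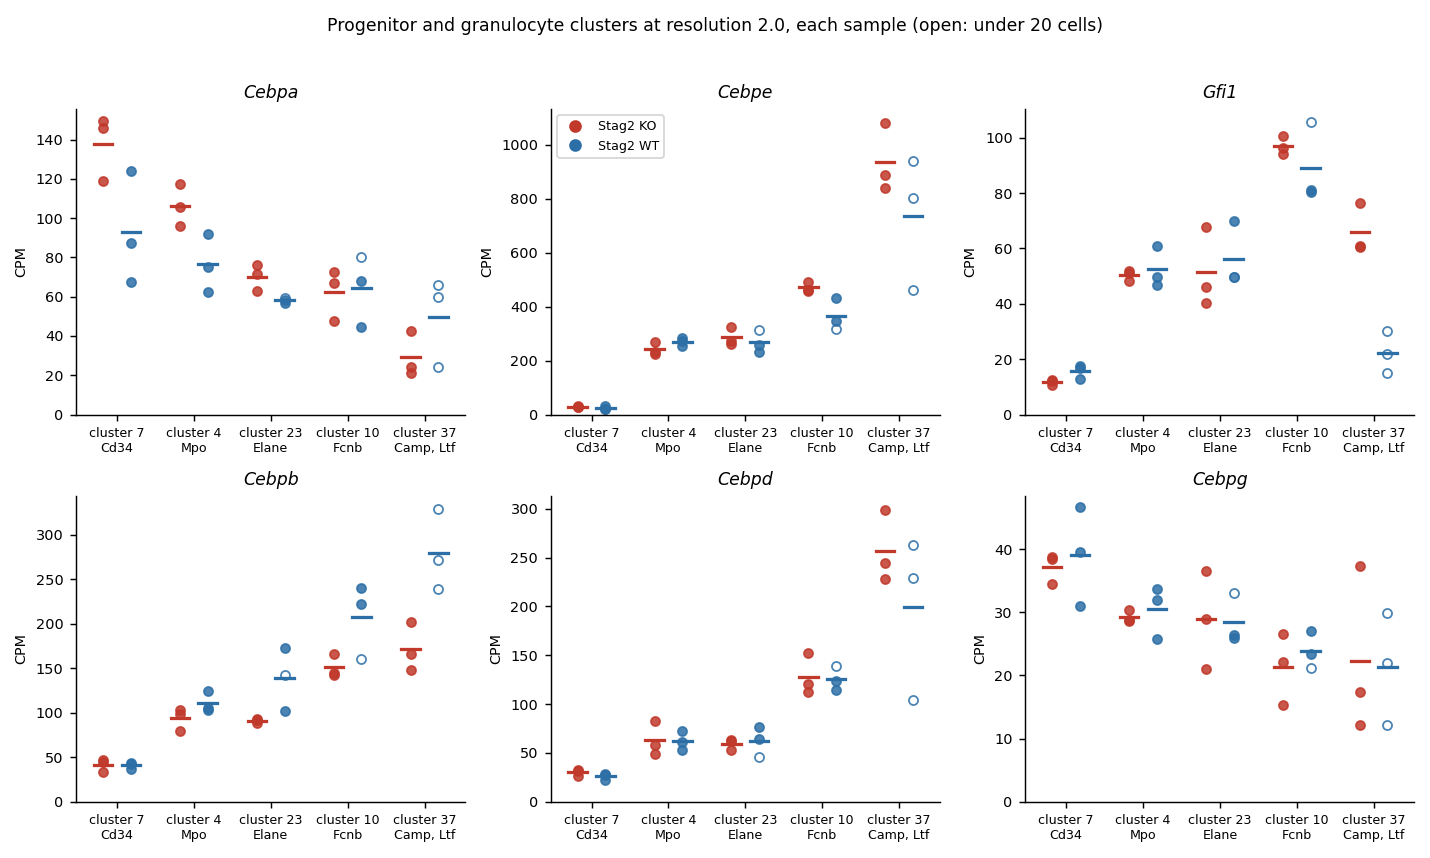
CPM of the 6 factors (vertical axes) in each sample for 5 progenitor and granulocyte clusters at resolution 2.0 (horizontal axis, with a leading gene), KO left (red) and WT right (blue), with bars at the means and open points for samples with under 20 cells. By the means of either genotype, Cebpa is highest in cluster 7 and lowest in cluster 37, Cebpe, Cebpb and Cebpd are lowest in cluster 7 and highest in cluster 37, and Gfi1 is highest in cluster 10.

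Over the whole granulocyte progenitor-like class Cebpe had 379, 365 and 409 CPM in KO samples and 267, 298 and 341 CPM in WT samples. The genotypes did not overlap, but the difference did not pass (log2 change 0.27, SE 0.102, adjusted p = 0.263). The class held 458, 171 and 331 cells in KO samples and 46, 124 and 382 in WT samples. The Fcnb cluster 10 at resolution 2.0 held 259, 84 and 169 cells in KO samples and 16, 55 and 155 in WT samples. How the class divided into finer clusters in each genotype was not compared, and its part in the Cebpe difference was not tested. Thinned to 2000 UMIs, 51.4% ± 4.91 of KO cells and 44.9% ± 1.91 of WT cells had a Cebpe UMI (exact permutation p = 0.2), beside 0.965% ± 0.131 of KO and 0.318% ± 0.153 of WT T/NK cell-like cells. Unthinned, the shares were 95.8% ± 1.27 of KO and 95.02% ± 2.92 of WT granulocyte progenitor-like cells. Gfi1 in the same class had 79.8, 80.4 and 77.9 CPM in KO samples and 82.6, 73.9 and 64.2 CPM in WT samples, which overlapped (log2 change 0.09, SE 0.11, adjusted p = 0.803). Gfi1 thus passed over all cells and in 0 of the 6 groups in which it could be tested, by edgeR and by DESeq2, with 1 unadjusted p under 0.05 (HSC/MPP-like cells).

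Cebpd and Cebpg passed in no class by either tool, as given above. Cebpd log2 changes ran over 9 tested groups between -0.47 in HSC/MPP-like cells and 0.71 in cluster 15, where KO samples had 146, 130.4 and 61.9 CPM and WT samples 74.9, 66.4 and 71.6 CPM. Those ranges overlapped through KO3 (adjusted p = 0.372). Cebpd did not overlap between genotypes in dendritic cell-like cells, at 82.1, 127 and 85.5 CPM in KO samples and 55.4, 76.1 and 77.3 CPM in WT samples (log2 change 0.47, SE 0.18, adjusted p = 0.118). Cebpg had the narrowest span, with log2 changes between -0.19 and 0.21 over 12 tested groups, although its chromosome 7 neighbour Cebpa spanned -0.31 to 0.54 over 9.

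Whether a factor's genotype difference in a class departed from that in the other classes was tested directly with limma, over the 7 groups in which at least 8000 genes were tested. Of 28 comparisons of a C/EBP factor, 0 passed after adjustment, where 0.263% of all 51289 gene and class pairs passed. An unadjusted p below 0.05 was found for 6 of the 28, and its share over all pairs was not counted. The 28 comparisons reuse the same factors and set each group against the others, so they are not independent. Cebpb in basophil/mast cell-like cells differed from its mean change in the other groups by -0.81 (adjusted p = 0.0908), and Cebpb in dendritic cell-like cells by 1.33 (adjusted p = 0.185). Cebpe and Gfi1 did not enter this test, since they were not tested in all 7 groups.

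Other genes of the same pathways were read from 8 lists with 83 different genes. The lists were chosen with earlier results of these data known, so their counts and medians beside all genes are descriptions. In granulocyte progenitor-like cells, 3 of 9 tested secondary granule genes, known targets of C/EBP epsilon, rose and none fell (median log2 change 0.73, against 0.01 for all genes), where 2.26% of all genes passed. Chil3, a chitinase-like lectin, had 107, 135 and 107 CPM in KO samples and 7.51, 18.8 and 31.3 CPM in WT samples (log2 change 2.22, adjusted p = 1.23e-06), and Lcn2, an iron-siderophore binding protein, 74.5, 87.5 and 72.3 CPM in KO samples and 23.8, 26.8 and 21.5 CPM in WT samples (log2 change 1.64, adjusted p = 6.12e-07). Fcnb, a ficolin, also rose (1.19, adjusted p = 7.04e-04), and all 3 genes had separate genotypes. Of 9 tested primary granule genes 2 rose, the serine protease genes Prtn3 (0.41, adjusted p = 0.00334) and Prss57 (0.42, adjusted p = 0.0274). The stem cell factor receptor gene Kit (-0.74, adjusted p = 0.0108) and Hoxa9 (-1.103, adjusted p = 0.0403), a homeobox gene repressed by Gfi1, fell, though Hoxa9 did not pass by DESeq2 (adjusted p = 0.313). They were the only genes past the threshold among 7 tested receptor genes (median 0.03) and 7 tested genes known as repressed by Gfi1 (median 0.00). Medians were -0.03 for primary granule genes, 0.16 for 10 C/EBP partners, 0.01 for the regulators, -0.04 for the cofactors and 0.12 for 10 fate factors. In the lists of C/EBP partners, regulators of C/EBP alpha protein (3 tested), Gfi1 cofactors (7) and fate factors, 0 genes passed by edgeR or DESeq2, with 0, 1, 0 and 2 unadjusted p-values under 0.05. The mix of finer clusters within the granulocyte progenitor-like class was not compared between genotypes. Its part in the differences of these granule genes, Kit and Hoxa9 was not tested.

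In cluster 1, where Cebpa rose, 1 of 8 tested receptor genes rose and 2 fell (median log2 change -0.09, against 0.01 for all genes, of which 3.9% passed). The neutrophil growth factor receptor gene Csf3r had 40.5, 40.9 and 40.3 CPM in KO samples and 27.7, 26.9 and 27.6 CPM in WT samples (log2 change 0.48, adjusted p = 0.0157), with every KO sample above every WT sample. The monocyte factor gene Irf8 had 241, 218 and 206 CPM in KO samples and 352, 352 and 340.2 CPM in WT samples, with every KO sample below every WT sample (-0.74, adjusted p = 2.17e-05). Csf1r (-0.73, adjusted p = 0.00997), the macrophage growth factor receptor gene, and Flt3 (-1.07, adjusted p = 4.11e-05), a receptor gene of early progenitors, fell as well. The mix of cells within cluster 1 was not compared between genotypes, and its part in these differences was not tested. Among 8 tested genes known as repressed by Gfi1, 3 fell (Irf8, Csf1r and the cell cycle inhibitor gene Cdkn1a at -0.99) and 1 rose, with a median of -0.19. Of 9 secondary granule genes 5 rose, Camp (2.48), Ngp, Lcn2 (1.72), Fcnb and Chil3, with a list median of 1.71. Fcnb (mean 5.93 CPM in KO, 1.52 in WT) and Chil3 (8.33, 1.28) passed the low-count filter mainly through KO samples, so this count and median lean toward KO. Camp and Ngp, however, also rose in T/NK cell-like cells, where Camp had 45.3, 62.3 and 15.2 CPM in KO samples and 3.86, 7.81 and 11.8 CPM in WT samples. Chil3 (mean 5.94 CPM in KO, 1.19 in WT) and Lcn2 (4.84, 1.86) were higher in the KO mean there too, with overlapping samples. In cluster 1 Camp had 35.96, 53.6 and 23.5 CPM in KO samples and 6.24, 4.07 and 8.27 CPM in WT samples, and the part of RNA from outside the cells was not tested.

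In basophil/mast cell-like cells the fate factor gene Runx1 had 349, 288 and 337 CPM in KO samples and 183, 152 and 161 CPM in WT samples, without overlap (log2 change 0.86, adjusted p = 9.64e-06). Zeb2 also rose (0.54), and Id2 (-0.75, adjusted p = 7.29e-04), an inhibitor of basic helix-loop-helix factors, and Irf8 (-0.702, adjusted p = 0.0433) fell among 12 tested fate factors, whose median log2 change was 0.00 (0.01 for all genes). In this class 12.8% of all genes passed. Among 10 tested bZIP partners Junb fell (-0.58, adjusted p = 3.91e-04) and Hlf rose (1.797), with a list median of 0.05. Hlf (mean 3.24 CPM in KO, 0.900 in WT) passed the low-count filter mainly through KO samples. Primary granule genes fell in 4 of 9 cases (median -0.34), with Ms4a3 at 335, 301 and 361 CPM in KO samples and 454, 529 and 538 CPM in WT samples (-0.73, adjusted p = 2.78e-05), separate between genotypes. Of 9 genes known as repressed by Gfi1, 3 fell, among them the growth factor gene Csf1 (-0.71, adjusted p = 4.67e-05), and 3 rose, Meis1 and Ets1 among them, with a median of -0.31, while Gfi1 itself had a log2 change of 0.02. Of 5 tested receptor genes Csf2rb rose (0.38) and Il3ra fell (-0.25), with a median of 0.07. Secondary granule genes were mixed, 5 higher and 3 lower of 9 (median 0.81), and those higher included Camp (2.36) and Ngp (2.23), which rose in T/NK cell-like cells too. Fcnb (mean 4.21 CPM in KO, 0.755 in WT) and Chil3 (8.56, 1.15), also higher, passed the low-count filter mainly through KO samples. Mmp9, among the 3 lower, passed it mainly through WT samples.

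In cluster 12, 5 of 9 primary granule genes rose (median log2 change 0.36, against 0.00 for all genes, of which 1.56% passed), among them Prtn3 (0.42, adjusted p = 0.00251) and Prss57 (0.99, adjusted p = 3.70e-05), and Flt3 (-1.62, adjusted p = 5.00e-05) and Cdkn1a (-1.26, adjusted p = 0.0201) fell. In dendritic cell-like cells Trib1 rose (1.07, adjusted p = 0.0155), whose product directs C/EBP alpha protein to degradation, and Cdk4 fell (-0.55, adjusted p = 0.00609), among 4 tested regulators (median -0.02, against 0.00 for all genes, of which 8.01% passed). The receptor genes Csf1r (0.72, adjusted p = 0.00661), Csf3r (1.46) and Il6ra (0.56) rose there, and Flt3 fell (-0.59, adjusted p = 0.012), with a median of 0.45 over the 8 receptor genes. Csf1r is also on the monocyte marker list, whose sum was higher in KO samples of this class (given above with Cebpb), and its part in these calls was not tested. Id1 rose (1.96) and Id2 fell (-1.12, adjusted p = 2.80e-04), with Id2 at 159.6, 96.98 and 137 CPM in KO samples and 315, 262 and 261 CPM in WT samples. On the secondary granule list 7 of 11 tested genes rose (median 1.28), Camp and Ngp among them, beside the late neutrophil marker sums given above for this class. Cybb (mean 327 CPM in KO, 171 in WT) and Ncf1 (149, 106), which are not among those late neutrophil markers, were also among the 7. Fcnb (mean 22.02 CPM in KO, 2.40 in WT), Lcn2 (14.7, 1.79) and Id1 (13.02, 3.57) passed the low-count filter mainly through KO samples.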

How the data were processed

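Polyadenylated RNA of single lineage-negative cells from 3 KO and 3 WT samples was sequenced with 10x 3' version 2 chemistry, per the labels. The authors deposited tables of raw, unnormalized UMI counts with cells in rows and genes in columns. Aligner, counter and genome build: not given in the sources used here. Coordinates come from GENCODE M21 (GRCm38). The design text counts 3 mice per genotype, taken here as 1 mouse per sample.

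Cells under 500 genes or above 20% mitochondrial counts were dropped, and the cells with the highest simulated-doublet scores were removed at 0.8% per 1000 cells (47 to 160 per KO sample, 48 to 367 per WT sample). Totals of the kept cells were 19476055 to 34165722 UMIs in KO samples and 15576325 to 32125935 in WT samples. Cells were clustered together without integration from 2000 variable genes, excluding the 6 factors, with 30 principal components, 15 neighbours and Leiden resolution 1.0 (alternatives 0.5 and 2.0). Clusters were named from 16 marker lists, with at least 3 markers raised 2-fold at 20 CPM or more, and leading genes ranked within each genotype, a choice made after the clusters were seen. Clusters with conflicting leading genes stayed unnamed. A difference from the authors' own clusters may come from these rebuilt names (adjusted Rand index 0.394 to 0.51).

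Counts were summed per sample and class and tested with edgeR 4.0.16 (quasi-likelihood, TMM, low-count filter, Benjamini-Hochberg over all tested genes, threshold 0.05). DESeq2 1.42.0, other size factors, no low-count filter, the title prefix, each library left out, other filters and other clusterings were alternatives. Class differences were compared with limma 3.58.1, and shares with 2-sided exact permutation tests over the 20 assignments of 3 and 3 samples, after thinning to 2000 UMIs. Floors of 3 counts cover counting error only. In simulated counts edgeR recovered 83.7% of genes changed by a log2 of 1 over all cells (12636 genes) and 76.3% in granulocyte progenitor-like cells (8964 genes).

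Members and lists were chosen with earlier results of these data known. Named genes were the 6 factors, Stag2, up to 4 list members per class past 0.05 by smallest p, where a factor also passed, and the 3 genes most like each factor. Further list members were named after their values were seen, and a few genes that met these rules are not reported here. Clustering used leidenalg 0.10.2 with igraph 0.11.9 and scikit-learn 1.9.0 (random seed 1), in Python 3.11.15 and R 4.3.3.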

Additional observations from a re-analysis of the deposited data

Results flagged for a closer look

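The Cebpb change had opposite signs in 2 basophil/mast cell-like clusters: every KO sample lay above every WT sample in cluster 13, and every KO sample lay below every WT sample in cluster 20. The log2 change in cluster 13 minus that in cluster 20 was 1.64, and this difference itself was not tested. Cluster 13 held different cells in the 2 genotypes, with 77.7% of its KO cells in the finer cluster 20 and 91.4% of its WT cells in the finer cluster 30, and within the finer cluster 30 the Cebpb log2 change was -0.97. Cluster 13 held 286, 132 and 272 cells in KO samples and 26, 52 and 74 in WT samples, and cluster 20 held 52, 28 and 45 in KO samples and 41, 105 and 116 in WT samples.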

How the results depend on the processing

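No paired analysis was possible because the replicate numbers only follow accession order and the labels give none. Cebpb in basophil/mast cell-like cells passed in all 17 alternatives (log2 change -1.003 to -0.69). Cebpe and Gfi1 over all cells passed in 14 of 15 each, and were lost with the same class shares. The number of factors passing over all cells was 3 and stayed between 2 and 4. Within classes it was 7 of 53 tests (3.78% of all genes passed), against 12 of 77 with no low-count filter (3.13%), 4 of 53 with DESeq2 (2.32%), 3 to 8 with a library left out (2.3% to 3.99%), 1 of 53 with the title prefix as a covariate (1.19%), 1 of 58 in the XA samples alone (1.27%), 3 of 54 with doublets kept (3.53%), 3 of 39 at resolution 2.0 (4.77%) and 3 of 80 in the finer clusters (1.85%), added after the data were seen. The network genes passing within classes were 107 of 631 tests, against 39 of 631 with the prefix and 59 of 686 in the XA samples alone, where calls over all genes were fewer too, as given. Cebpb in dendritic cell-like cells reversed to -0.18 at resolution 2.0 and -0.17 with the factors among the variable genes. Shares of cells with a UMI did not overlap between genotypes in 19 of 78 pairs of a factor and a group, and in 12 of 78 without thinning, each at the smallest exact p of 0.1 (0.382 after Benjamini-Hochberg adjustment at 2000 UMIs). Over all genes tested by edgeR the share of such pairs was 15.1% thinned and 16.7% unthinned, against 15 and 8 of the 53 tested pairs of a factor. The causes of these changes were not tested. With 3 samples per genotype the exact tests cannot go below 0.1. The XA prefix left WT1 as the only WT sample with the code of the KO samples, which is then assumed to vary like the others. Counts of Gfi1, and of Cebpe outside granulocytes, were too low for most classes.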
